A study of Homo sapiens with 32 samples.

Results

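The human exon array holds transcript clusters, groups of probe sets that stand for a stretch of transcribed genome and usually for a gene, and 860 of the 16309 clusters in the gene-level table have no gene symbol in the platform annotation. These 860 clusters were selected by that missing symbol alone, without regard to their values. Of the other clusters, 13482 carry 1 symbol and 1967 carry several. The cells were LNCaP, an established human prostate cancer line that responds to androgen, on 8 arrays. All arrays were of cells moved to RPMI-1640 with charcoal-stripped 10% serum for 72 hours. For a further 24 hours, cells of the 4 R1881 arrays had 10 nM R1881 (methyltrienolone), a synthetic androgen. By the paper's methods, cells of the 4 steroid-deplete arrays went without it for the same 24 hours. A single cell line was used, and the labels do not say whether replicates came from separate cultures, so p-values measure the spread between these samples, which may be technical.

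Androgens bind the androgen receptor, which enters the nucleus and acts on transcription at androgen response elements in DNA. In prostate epithelial cells the receptor is known for its control of secreted kallikreins, of lipid synthesis and of growth. A cluster without a symbol is a gap in the annotation, not evidence for an unknown gene, so the exon-level table was used to find out which genes the clusters may stand for. Its 620335 probe sets have identifiers that run in the same order as those of the clusters, and 259942 of them carry a symbol. Probe sets with identifiers between a cluster and the next gene-level cluster were taken as following that cluster. The symbol that at least 3 of them and at least 50% of the annotated ones carried was used as a name where no gene-level cluster already carried it. A name was dropped where its probe sets had a median level over 2 log2 units below the cluster. This removed 17 names and left 330 clusters with a name and 530 known by identifier only. The same rule gave a name to 12025 clusters with 1 symbol in the platform annotation, and for 97.6% of these it gave the cluster's own symbol. The rule drops symbols that other gene-level clusters carry, which removes wrong names among these clusters in advance. The share therefore does not measure how often the 330 names are right. By RefSeq type, 307 of the 330 names are protein-coding genes, 10 are long non-coding RNAs, 12 are pseudogenes and 1 was not matched. In 10 of the 330 the probe sets with the name lay over 2 log2 units above the cluster. Among the 101 protein-coding names at an adjusted p under 0.05, the median difference of those probe sets had the sign opposite to the cluster's in 4, and among the 10 long non-coding RNAs in 8. The names below are therefore inferred from identifier order, and each is given with its cluster identifier when first described.

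The 250 bases before the RefSeq transcription start of 4 named genes are shown because these genes gave large differences in each direction and their responses are described below. Sequences are from RefSeq on GRCh38.p14, 5′ to 3′, with AGAACA or its reverse complement TGTTCT, the hexamer of the androgen response element, in capitals. The sequences of the clusters and their positions on the array's own build were not used here.
ACSL3, chr2:222860786-222861035, plus strand: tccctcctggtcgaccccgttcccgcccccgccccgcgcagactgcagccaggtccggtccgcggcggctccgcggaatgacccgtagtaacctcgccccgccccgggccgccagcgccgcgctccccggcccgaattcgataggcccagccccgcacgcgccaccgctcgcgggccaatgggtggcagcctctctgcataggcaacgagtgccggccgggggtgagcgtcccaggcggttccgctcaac
MBOAT2, chr2:9003685-9003934, minus strand: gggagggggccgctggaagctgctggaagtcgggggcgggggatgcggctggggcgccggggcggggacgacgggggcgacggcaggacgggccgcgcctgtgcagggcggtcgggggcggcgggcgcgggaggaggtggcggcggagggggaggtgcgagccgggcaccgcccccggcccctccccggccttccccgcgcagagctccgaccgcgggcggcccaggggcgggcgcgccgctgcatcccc
BTG2, chr1:203305269-203305518, plus strand: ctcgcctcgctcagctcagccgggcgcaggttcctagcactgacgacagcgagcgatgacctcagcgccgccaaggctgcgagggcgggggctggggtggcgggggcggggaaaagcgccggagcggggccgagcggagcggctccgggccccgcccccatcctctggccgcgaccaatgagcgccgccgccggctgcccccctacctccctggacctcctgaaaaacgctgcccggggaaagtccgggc
CNKSR3, chr6:154510686-154510935, minus strand: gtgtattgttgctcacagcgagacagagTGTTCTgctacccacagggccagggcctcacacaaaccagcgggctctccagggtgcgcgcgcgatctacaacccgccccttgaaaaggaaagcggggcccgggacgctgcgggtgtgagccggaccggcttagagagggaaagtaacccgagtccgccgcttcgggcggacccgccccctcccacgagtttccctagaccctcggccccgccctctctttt
The hexamer was found in the printed window of CNKSR3, 216 bases before the start, and in none of the other 3 windows. Among the called clusters described below, 15 names had a window in the RefSeq table, and CNKSR3 was the only name with a match, in 2 of its 4 alternative windows. Counted by window, 2 of the 19 windows of these names (10.5%) held the hexamer, against 12.4% of all 35116 windows of this length. These matches are letters in a short window and say nothing of where the receptor binds.

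Levels were RMA values on the log2 scale, and a difference is R1881 minus steroid-deplete. Known androgen responses were present in these arrays. KLK3, which encodes prostate-specific antigen, went from 10.41 to 12.24, TMPRSS2 rose by 2.57 and OPRK1 fell by 2.24 on the log2 scale. Of the markers listed for LNCaP cells, 3 had a cluster of their own, and KLK3, HOXB13 and TMPRSS2 were all in the highest quartile of level. Of the markers for stroma, endothelium, leukocytes and basal cells, 10 were measured, and 9 of them lay in the lower 2 quartiles. The exception was COL1A1, at 6.55 and 6.58. The second principal component of the 860 clusters, with 10.1% of the variance, set steroid-deplete replicate 1 and R1881 replicate 4 apart from the other arrays. Without those arrays, 18 clusters were called higher and 14 lower, against 17 and 15 with all arrays.

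A cluster was called when limma's adjusted p over all 16309 clusters was under 0.005 and the difference was at least 2-fold. Of the 860 clusters, 17 (1.98%) were called higher after R1881 and 15 (1.74%) lower, and 828 were not called. Over all clusters 1.94% were called higher, 2.04% lower and 3.99% in either direction, so the clusters without a symbol were called about as often as the rest (3.72%). The arrays of the treatments did not overlap for any of the 32 called clusters. They did not overlap for 216 of the 860 (25.1%), against 29.8% of all clusters. At an adjusted p under 0.05 with no limit on fold, 88 clusters (of which 43 had a name) were higher and 144 were lower (61 with a name). The shares over all clusters at that limit were 10.5% higher and 19.8% lower. The median difference over the 860 was 0.0022 and over all clusters -0.0030, and the range over the 860 was -2.16 to 3.66. Centring each array on its median moved the median of the 860 to 0.10, and the calls then numbered 20 higher and 12 lower. When Iter-PLIER rather than RMA summarised the clusters, 22 of the 860 were called higher and 39 lower. Over all 16309 clusters, 444 were then called higher and 924 lower. The plot of difference against level shows a dense band around 0, with the 32 called clusters in its tails. Some uncalled clusters lay close to the 2-fold limit, at 0.96 and -0.90, so the limit cuts through these tails.

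**Figure D1:**
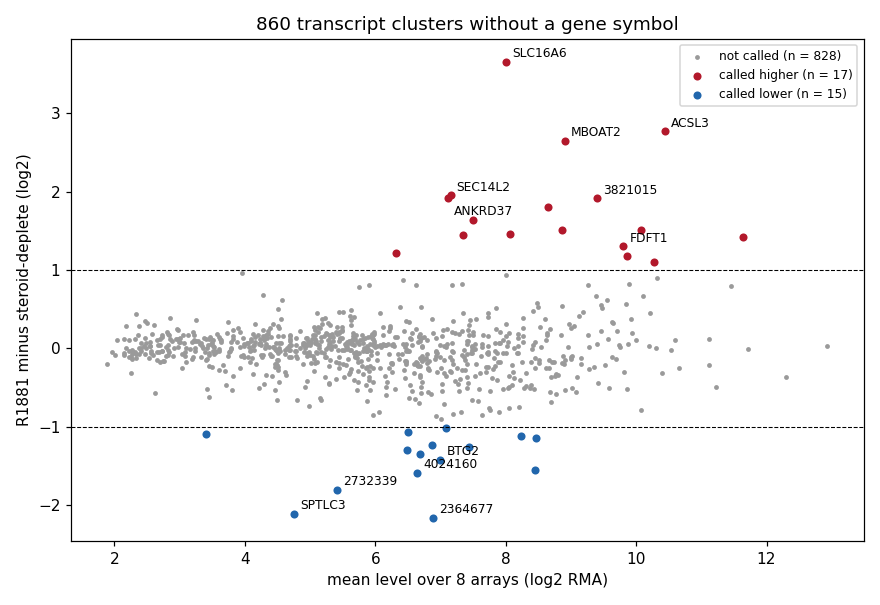
Difference in log2 level between R1881 and steroid-deplete arrays (y axis) against mean log2 RMA level over 8 arrays (x axis) for 860 transcript clusters without a symbol, with dashed lines at 2-fold. The 17 clusters called higher (red) reach 3.66 and the 15 called lower (blue) reach -2.16, while 828 (grey) were not called.

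Several genes that handle lipids and sterols differed by more than 2-fold. Of 16 named clusters in this list, 4 were called higher (ACSL3, MBOAT2, SEC14L2 and FDFT1) and 1 lower (SPTLC3), against 1.94% higher and 2.04% lower over all clusters, and the median difference of the list was 0.12, against -0.0030 over all clusters. This list and the ones that follow were put together after values of these clusters had been seen. Their counts describe the listed members only. The lists need not hold every named gene of a role, so the shares beside them are no test of enrichment. CIDEB (-0.43) and ENPP7 (-0.04), which also act on lipids, were left out of this list and did not reach 2-fold. GBA3 was counted here and again among the 12 pseudogenes below.
Cluster 2529546, named ACSL3, which activates long-chain fatty acids to their CoA forms, had levels of 8.92, 9.24, 9.11 and 8.95 on the steroid-deplete arrays and 11.92, 12.04, 11.75 and 11.60 on the R1881 arrays. The lowest R1881 array lay over 2 log2 units above the highest steroid-deplete array. The difference was 2.77 ± 0.11 (SE, n = 4 per group), or 6.82-fold, with limma's adjusted p of 4.6e-10.
Cluster 2539607, named MBOAT2, a lysophospholipid acyltransferase, gave 7.33, 7.63, 7.77 and 7.60 without androgen and 10.28, 10.47, 10.20 and 9.99 with R1881. Its increase was nearly as large, at 2.65 ± 0.11 or 6.28-fold (adjusted p 1.1e-09).
Cluster 3942350, named SEC14L2, a lipid-binding protein that stimulates squalene oxidation in cholesterol synthesis, rose from 6.18 ± 0.09 to 8.13 ± 0.15 (SD, n = 4), a 3.87-fold change (adjusted p 2.5e-09). FDFT1 (cluster 3086206), squalene synthase, which commits farnesyl groups to sterol synthesis, rose from 9.16 ± 0.15 to 10.46 ± 0.21, a 2.46-fold change (adjusted p 1.0e-06). Below the 2-fold limit, AMACR, a racemase for branched fatty acids known as a prostate cancer marker, rose by 0.67 (adjusted p 7.6e-05).

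The decreases in this list included a sphingolipid gene. Cluster 3876990, named SPTLC3, a subunit of the enzyme that starts sphingolipid synthesis, was at 5.75, 5.81, 5.82 and 5.87 on the steroid-deplete arrays and at 3.86, 3.53, 3.63 and 3.79 on the R1881 arrays. The groups were far apart, with a 4.32-fold decrease (difference -2.11 ± 0.09 SE, adjusted p 7.9e-10). The R1881 mean of 3.70 was near that of PECAM1, an endothelial marker (3.57), and detection above background was not tested, so the fold may be a lower bound. Its mean over 8 arrays lay in the lowest quartile of level, so filters on dim clusters left it untested. Smaller decreases passed an adjusted p of 0.005 for HSD3B7, an enzyme of bile acid synthesis (-0.66), AGPAT3, an acyltransferase of phospholipid synthesis (-0.53), and SCP2, a sterol carrier protein (-0.51).

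The largest difference of all 860 clusters was that of cluster 3768412, named SLC16A6, a member of the monocarboxylate transporter family. Its levels were 6.19, 6.16, 6.16 and 6.23 without androgen and 9.90, 9.88, 9.89 and 9.68 with R1881. The steroid-deplete arrays agreed within 0.03 (SD, n = 4), and the change was 12.6-fold (difference 3.66 ± 0.08 SE, adjusted p 2.8e-12). Among 7 named solute carriers it was the only cluster past 2-fold, while 3.99% of all clusters were called. SLC22A3, an organic cation transporter, rose by 0.82 (adjusted p 1.1e-05), and SLC16A1, another monocarboxylate transporter, fell by 0.52 (adjusted p 0.00122). Of 7 named ion channel genes, 1 was called, against 3.99% of all clusters. This was KCNN2 (cluster 2824581), a calcium-activated potassium channel, which went from 6.62 ± 0.11 to 8.07 ± 0.16 (2.71-fold, adjusted p 8.7e-08).

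A list of genes for sugar nucleotide supply, secretion and vesicle traffic held members that differed in each direction. Of 12 named clusters, 7 were higher and 2 lower at an adjusted p under 0.05, against 10.5% and 19.8% over all clusters, with a median difference of 0.54. The 7 include the cluster named RAB12, whose name its probe sets do not bear out, as described below. The highest was cluster 2962767, named PGM3, a mutase of the pathway that makes UDP-N-acetylglucosamine for glycosylation. It gave 7.51, 7.80, 7.98 and 7.70 on the steroid-deplete arrays and 9.61, 9.85, 9.44 and 9.33 on the R1881 arrays. Its groups were separated by more than 1 log2 unit, and the change was 3.50-fold (adjusted p 9.3e-08). TBC1D8 (cluster 2567447), which has a domain typical of proteins that switch off Rab GTPases, went from 6.68 ± 0.20 to 8.32 ± 0.15, a 3.11-fold change (adjusted p 8.0e-08). PMM2, a phosphomannomutase needed for N-glycosylation, rose by 0.93, USO1, a tether for vesicles bound for the Golgi, by 0.81, and TXNDC5, a disulfide isomerase of the endoplasmic reticulum, by 0.52. Their adjusted p-values were 2.3e-05, 9.7e-05 and 0.00085. The members that fell were VTA1 (cluster 2928392), which acts in the sorting of proteins into multivesicular bodies, and SORT1, a sorting receptor. VTA1 went from 9.04 ± 0.17 to 7.90 ± 0.20 (adjusted p 4.1e-06) and SORT1 fell by 0.51 (adjusted p 0.00141).

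Other clusters called higher were GLUD1 (cluster 3298977), mitochondrial glutamate dehydrogenase, ANKRD37 (cluster 2754673), an ankyrin repeat protein, MTFP1 (cluster 3942384), a protein of mitochondrial fission, and BMPR1A (cluster 3256074), a receptor for bone morphogenetic proteins. GLUD1 rose from 9.32 ± 0.16 to 10.83 ± 0.12 (2.85-fold, adjusted p 5.1e-08). The 8 probe sets with its name had a median level of 8.44, against a mean of 10.07 for the cluster, and a median difference of 1.58. GLUD1 has close relatives in the genome, and whether probes of this cluster also match them was not tested. ANKRD37 rose from 6.15 ± 0.19 to 8.07 ± 0.29 (3.77-fold, adjusted p 1.6e-07), a difference of 1.91 that was 2.65 with Iter-PLIER values. The 9 probe sets with this name had a median level of 5.59, against a mean of 7.11 for the cluster, and a median difference of 1.44. The cluster's difference may therefore not be that of the named gene alone. BMPR1A rose from 7.34 ± 0.12 to 8.79 ± 0.29 (2.75-fold, adjusted p 1.1e-06). This name rests on 3 of the 37 probe sets that follow the cluster, the fewest that the naming rule allows. MTFP1 rose from 5.70 ± 0.34 to 6.92 ± 0.26 (2.33-fold, adjusted p 4.7e-05), the smallest margin between groups in this set, with 6.12 as the highest steroid-deplete array and 6.54 as the lowest R1881 array. The methods' t-test with Benjamini-Hochberg adjustment did not call it.

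Among 15 named clusters of kinase, phosphoinositide and receptor signalling, BMPR1A was called higher and 3 were called lower. Over all clusters 1.94% were called higher and 2.04% lower. The list left out other named kinase genes, and the share called depends on that choice. Among those left out, EPHB2 (-0.22), BMX (-0.52), PAK3 (-0.66), INSRR (0.05) and CSNK1G3 (0.17) did not reach 2-fold. The median difference of the list was -0.18, against -0.0030 over all clusters. Cluster 2980516, named CNKSR3, a scaffold protein of kinase signalling, was at 7.07, 7.45, 7.55 and 7.37 without androgen and at 6.03, 6.01, 6.09 and 5.92 with R1881. The R1881 arrays were tightly grouped, and the decrease was 2.54-fold (adjusted p 2.8e-07). BIRC3 (cluster 3346548), an inhibitor of apoptosis in NF-kappaB signalling, went from 3.95 ± 0.21 to 2.86 ± 0.12, a 2.13-fold decrease at low levels (adjusted p 3.5e-06), and its difference was -1.78 with Iter-PLIER values in place of -1.09. CAMK2B (cluster 3048517), a calcium and calmodulin-dependent kinase, went from 7.59 ± 0.21 to 6.58 ± 0.13, a 2.02-fold decrease (adjusted p 7.5e-06). Its difference was larger with Iter-PLIER values, at -1.75. Its call was lost below 2-fold after centring and quantile normalisation (-0.91 each), and without steroid-deplete replicate 3 or 4 (-0.98 and -0.95) or R1881 replicate 2 or 4 (-0.98 and -0.99). BIRC3 missed 2-fold after centring (-0.99).

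Of 9 named clusters of the cell cycle and DNA repair, 5 were lower and 1 higher at an adjusted p under 0.05, against 19.8% and 10.5% over all clusters, with a median difference of -0.36. The called member was BTG2 (cluster 2375664), an inhibitor of proliferation, with levels of 7.64, 7.55, 7.73 and 7.91 on the steroid-deplete arrays and 6.19, 6.40, 6.35 and 6.22 on the R1881 arrays. All R1881 arrays lay more than 1 log2 unit below the lowest steroid-deplete array, a 2.67-fold decrease (adjusted p 6.1e-08). RBBP8, which acts in the trimming of DNA ends at breaks, fell by 0.85 (adjusted p 3.6e-05), FANCD2 and FANCA, of the Fanconi anaemia repair pathway, fell by 0.42 and 0.36 (adjusted p 0.00812 and 0.00232), and MCPH1, a protein of the damage response, rose by 0.36 (adjusted p 0.015).

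**Figure D2:**
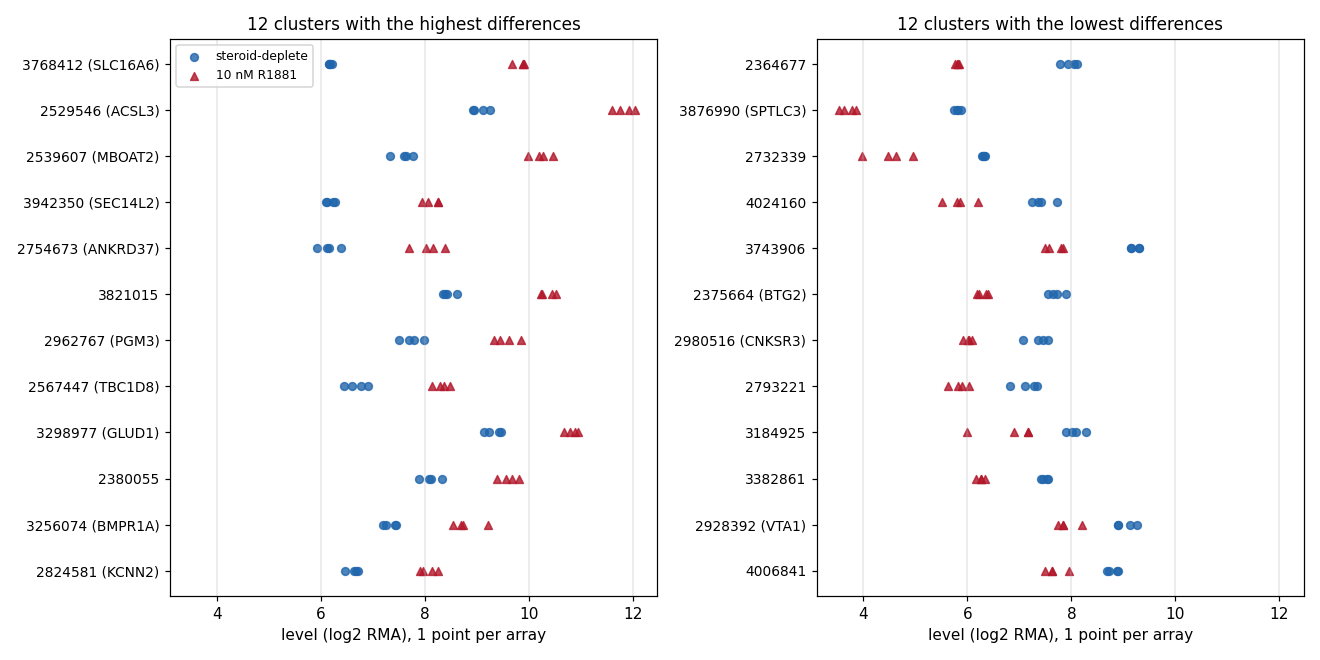
Log2 RMA level on each array (x axis, 1 point per array) for the 12 clusters with the highest (left) and the 12 with the lowest (right) differences, with steroid-deplete arrays as circles and R1881 arrays as triangles. In all 24 clusters the groups do not overlap, from SLC16A6 at 3.66 to cluster 2364677 at -2.16.

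In other families among the named clusters no member was called. Over all clusters 3.99% were called and 30.3% passed an adjusted p of 0.05, so short lists can hold no call. Of 9 HOXA genes, which encode homeobox transcription factors, HOXA5 was lower (-0.63, adjusted p 0.00073) and the other 8 did not pass an adjusted p of 0.05, with differences from -0.10 to 0.27. None of 5 type II keratin genes (KRT75, KRT81, KRT82, KRT83 and KRT85) passed by limma or the methods' t-test, with differences from -0.06 to 0.07, and 0 of them had an unadjusted p under 0.05. Of 11 named genes for nuclear receptors, coregulators and steroid handling, none was called at 2-fold by limma or the methods' t-test, and 4 had an unadjusted p under 0.05 with limma. NCOA3, a coactivator of nuclear receptors, fell by 0.55 (adjusted p 0.00119), PGRMC1, a membrane protein that binds heme, fell by 0.31 (adjusted p 0.00786) and NCOR1, a corepressor, fell by 0.33 (adjusted p 0.0283). Of 10 clusters named as long non-coding RNAs none reached 2-fold. No smaller difference is attributed to these RNAs, since the probe sets with the name mostly had the opposite sign. Of 12 pseudogenes none passed an adjusted p of 0.05 by limma or the methods' t-test, and 2 had an unadjusted p under 0.05 with limma.

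The 14 called clusters known by identifier only were described by their own values and by the clusters with 1 symbol on each side in identifier order. The lowest of all 860 was cluster 2364677, between NUF2 and LRRC52. It was at 7.78, 7.94, 8.05 and 8.10 on the steroid-deplete arrays and at 5.82, 5.80, 5.84 and 5.76 on the R1881 arrays. This was a 4.48-fold decrease with little spread (adjusted p 5.0e-10), while NUF2 and LRRC52 differed by -0.52 and -0.08.
Cluster 2732339, between SEPTIN11 and CCNG2, went from 6.31 ± 0.03 to 4.51 ± 0.41, a 3.49-fold decrease (adjusted p 1.0e-06). Both flanking genes fell too, SEPTIN11, a cytoskeletal GTPase, by 1.37 and CCNG2, cyclin G2, a cyclin linked to growth arrest, by 1.71.
Cluster 4024160, between MCF2 and SOX3, went from 7.44 ± 0.20 to 5.85 ± 0.29, and cluster 3743906, between SAT2 and NAA38, from 9.22 ± 0.09 to 7.67 ± 0.18. Their adjusted p-values were 1.0e-06 and 3.8e-08, and none of the 4 flanking genes passed an adjusted p of 0.05. Cluster 2793221, between SH3RF1 and MFAP3L, fell by 1.29 (adjusted p 1.9e-06). Cluster 3382861, between GDPD4 and RSF1, fell by 1.24 (adjusted p 3.7e-08), and cluster 4006841, between DIPK2B and ZNF41, fell by 1.12 (adjusted p 2.0e-06).
Cluster 3184925, between ZNF483 and UGCG, was at 6.91, 7.17, 7.17 and 5.99 on the R1881 arrays against 8.00, 8.29, 7.90 and 8.09 on the steroid-deplete arrays. R1881 replicate 4 lay lowest, and without it the difference was -0.99 in place of -1.26, which lost the call. Cluster 3340251, between PPME1 and POLD3, fell by 1.06 (adjusted p 0.00012). It missed 2-fold without steroid-deplete replicate 4 (-0.98), R1881 replicate 1 (-0.99) or R1881 replicate 4 (-0.96).

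Of the clusters known by identifier, 5 were called higher. Cluster 3821015, between SMARCA4 and TSPAN16, was at 8.39, 8.43, 8.36 and 8.62 without androgen and at 10.45, 10.24, 10.52 and 10.25 with R1881. The groups were more than 1 log2 unit apart, and the change was 3.77-fold (adjusted p 3.3e-09). Cluster 2380055, between KCNK2 and SPATA17, went from 8.11 ± 0.18 to 9.61 ± 0.18 (2.84-fold, adjusted p 2.0e-07). Cluster 2413907, between TTC22 and USP24, went from 10.93 ± 0.05 to 12.35 ± 0.10 (2.67-fold, adjusted p 1.5e-08) and was also among the 5 clusters with the highest mean. Cluster 2815965, between ARHGEF28 and POLK, rose by 1.18 (adjusted p 2.8e-07) and cluster 3037385, between DAGLB and ZNF12, by 1.10 (adjusted p 1.4e-06). None of these 10 flanking genes was called.

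Probe affinities differ, so levels of single clusters were not ranked as abundance. As a class, the 860 clusters had a median level of 5.76 (quartiles 4.37 and 7.38), against 6.36 (4.94 and 7.63) for clusters with 1 symbol. The lowest quartile of level over all 16309 clusters, below 4.89, held 32.7% of the 860, and the highest, above 7.59, held 21.5%. The 330 clusters with a name had a median of 6.04 and the 530 without a name 5.62. The SD between arrays was also somewhat larger, with medians of 0.13 (steroid-deplete) and 0.15 (R1881) against 0.12 and 0.13 for clusters with 1 symbol. The number of probes behind each cluster was not analysed here.
Within quartiles of level the shares called could be read side by side. In the dimmest quartile 2 of 281 clusters without a symbol (0.712%) and 0.697% of those with 1 symbol were called. In the second quartile 2 of 228 (0.877%) were called, against 3.3%. In the upper 2 quartiles 13 of 166 (7.83%) and 15 of 185 (8.11%) were called, against 4.79% and 7.47%. Of the 17 clusters called higher, 12 lay in the highest quartile, and of the 15 called lower, 9 lay in the third. Over all clusters, 204 of the 317 called higher lay in the highest quartile, and 122 of the 333 called lower in the third. The level is a mean over all 8 arrays, so a change after R1881 also moves the level. The shares for clusters without a symbol rest on few clusters and were not tested. The 330 clusters with a name were called in 5.45% and the 530 without in 2.64%.

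**Figure D3:**
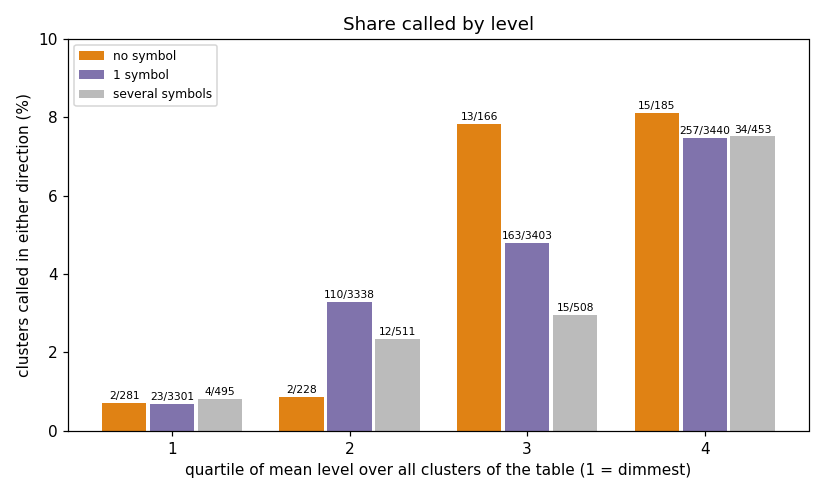
Percent of clusters called in either direction (y axis, bars from 0) in each quartile of mean level over all 16309 clusters (x axis), for clusters with no symbol, 1 symbol or several, with the number called over the number in the quartile above each bar. For clusters without a symbol the share is 0.712% in the dimmest quartile and 8.11% in the brightest.

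Most of the 5 clusters with the highest means differed by less than 2-fold. Cluster 4037583, between TTTY5 and ND5 in identifier order, had the highest mean, at 12.92 ± 0.09 and 12.95 ± 0.06, and ARL6IP1 (cluster 3683037), a membrane protein of the endoplasmic reticulum, was at 11.71 in each group. After quantile normalisation ARL6IP1 differed by -0.30 (adjusted p 0.00403). Cluster 2891052, between TRIM7 and TRIM52, fell by 0.36 (adjusted p 0.00494) and cluster 2353477, between MAB21L3 and CD2, rose by 0.80 (adjusted p 7.0e-06). The 3 with the lowest means, near 2, were EPS15P1 (cluster 3000643) and clusters 3378671 and 3489481, and none passed an adjusted p of 0.05.
At the 2-fold limit, the values just inside were 1.10 for cluster 3037385 and -1.01 for CAMK2B. Just outside were cluster 3777770 at 0.96 and cluster 3617312, between EMC7 and NOP10, at -0.90. The rule gave cluster 3777770, between PTPRM and MTCL1, the name RAB12, but the 15 probe sets with that name had a median level of 6.69 and a median difference of 0.16, against a mean level of 3.95 for the cluster. Cluster 3777770 was at 3.12, 3.51, 3.47 and 3.78 on the steroid-deplete arrays and at 4.37, 4.95, 4.66 and 3.72 on the R1881 arrays. Its groups overlapped through R1881 replicate 4, and its difference was 1.19 without that array and 1.06 without steroid-deplete replicate 4, past both limits in each case. It was 0.78 without R1881 replicate 2 and 0.41 with Iter-PLIER values (adjusted p 0.0673).

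Adjacent identifiers mostly followed genome order. Of 11248 pairs of adjacent clusters with 1 symbol each, 99.6% lay on 1 chromosome in RefSeq and 99.4% of those had their starts in identifier order. The order did not run along whole chromosomes. MBOAT2 has a higher identifier than ACSL3, but its window starts at chr2:9003685 (minus strand), against chr2:222860786 (plus strand). PGM3 and VTA1 on chromosome 6 showed the same. Neighbours below are therefore neighbours by identifier, and whether genes of the other strand lie between them was not tested. For 327 named clusters with flanking genes on the same chromosome, all 327 names lay on that chromosome. Of the 32 called clusters, 8 (25%) had an immediate neighbour called in the same direction, 4 of 17 higher and 4 of 15 lower. Over all 650 called clusters the share was 9.69%. The count of 8 is small, it holds the pair of SEC14L2 and MTFP1 from each side, and with the nearest clusters of 1 symbol on each side it was 5 of 32 (15.6%), against 8.92% of all called clusters. At an adjusted p under 0.05 with no fold limit the share was 38.8% against 39.2% of all called clusters, and with Iter-PLIER values it was 19.7% against 18%, so the higher share was seen only with the RMA values and the 2-fold limit.
Next to SLC16A6, the cluster that carries the symbols WIPI1, MIR635 and ARSG rose by 3.16 (adjusted p 3.8e-11). SEC14L2 and MTFP1 formed the only run of adjacent called clusters without a symbol, with differences of 1.95 and 1.22. ANKRD37 lay between SNX25, a sorting nexin, which rose by 1.96, and TLR3, a receptor for double-stranded RNA, which fell by 2.17 on the log2 scale. VTA1 lay beside ADGRG6, an adhesion receptor, which fell by 1.80, cluster 2793221 beside SH3RF1, a ubiquitin ligase, which fell by 1.34, and cluster 3184925 beside ZNF483, a zinc finger gene, which fell by 1.18.
TBC1D8 and ANKRD37 had a neighbour called in the opposite direction, CHST10 (-1.01) and TLR3. For 24 of the 32 no immediate neighbour was called in the same direction, among them ACSL3, MBOAT2, SPTLC3 and cluster 2364677. Over the 860 clusters, the difference of a cluster and the mean difference of its immediate neighbours had a Pearson correlation of 0.175 and a Spearman correlation of 0.115, and over the 13482 clusters with 1 symbol these were 0.154 and 0.153. All points share the same 8 arrays, and genes are not independent replicates. Whether a neighbouring cluster belongs to the same transcript was not tested.

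**Figure D4:**
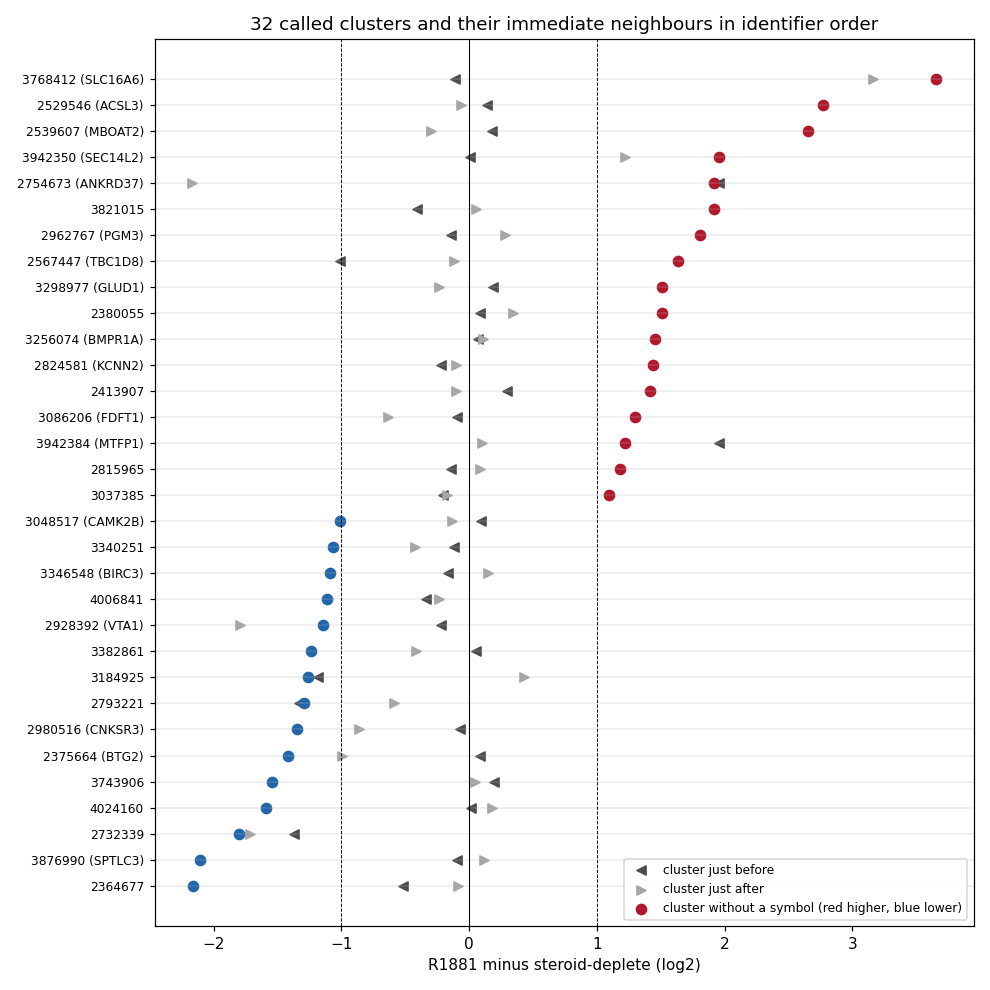
Difference between R1881 and steroid-deplete arrays (x axis, log2) for each of the 32 called clusters (circles) and the clusters just before and just after it in identifier order (triangles), with dashed lines at 2-fold. SLC16A6 at 3.66 has a neighbour at 3.16, while most neighbours lie near 0.

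The exon-level values of the same arrays showed how much of each identifier interval moved. The probe sets that follow the 24 clusters of the plot of array values numbered 1313. Of these, 430 (32.7%) changed in the direction of their cluster at limma's adjusted p under 0.05 over all probe sets, and 1 changed in the opposite direction. For all 32 called clusters these numbers were 526 of 1680 and 9, of which 7 follow FDFT1 and carry no FDFT1 symbol. Over all probe sets 1.65% were higher and 2.4% lower. The gene-level values were made from some of the same probe sets, so this is no independent test of a cluster's difference.
In the 14 of these clusters with a name, 157 of the 195 probe sets that carry the name (80.5%) changed with the cluster, against 90 of the 591 others (15.2%). In all 18 called clusters with a name the share was 194 of 261 (74.3%). For ACSL3 all 21 probe sets with the symbol rose, with differences from 0.85 to 3.40, and 19 of its 50 others did. For MBOAT2 12 of 13 rose and for PGM3 14 of 16. SLC16A6 had 6 probe sets with the symbol, of which 4 rose, and the lowest and highest differed by 0.16 and 4.71. For SPTLC3 15 of 20 fell and for VTA1 12 of 14. BTG2 had 4 of 7 lower, BIRC3 6 of 12 and CAMK2B 11 of 23. ANKRD37 had 5 of 9 higher, MTFP1 4 of 8, BMPR1A 2 of 3 and KCNN2 11 of 18. In these, too, some probe sets of the gene did not pass the test.
Among the clusters known by identifier, 26 of 43 probe sets that follow cluster 4024160 fell, with a median of -1.50, and 21 of 35 that follow cluster 3821015 rose, with a median of 1.62. Of 128 that follow cluster 2364677, 37 fell. Cluster 3184925 had 8 probe sets, of which 2 fell. Over the 330 named clusters, the gene-level difference and the median difference of the probe sets with the name had a Pearson correlation of 0.943, which describes summaries of shared probes.

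**Figure D5:**
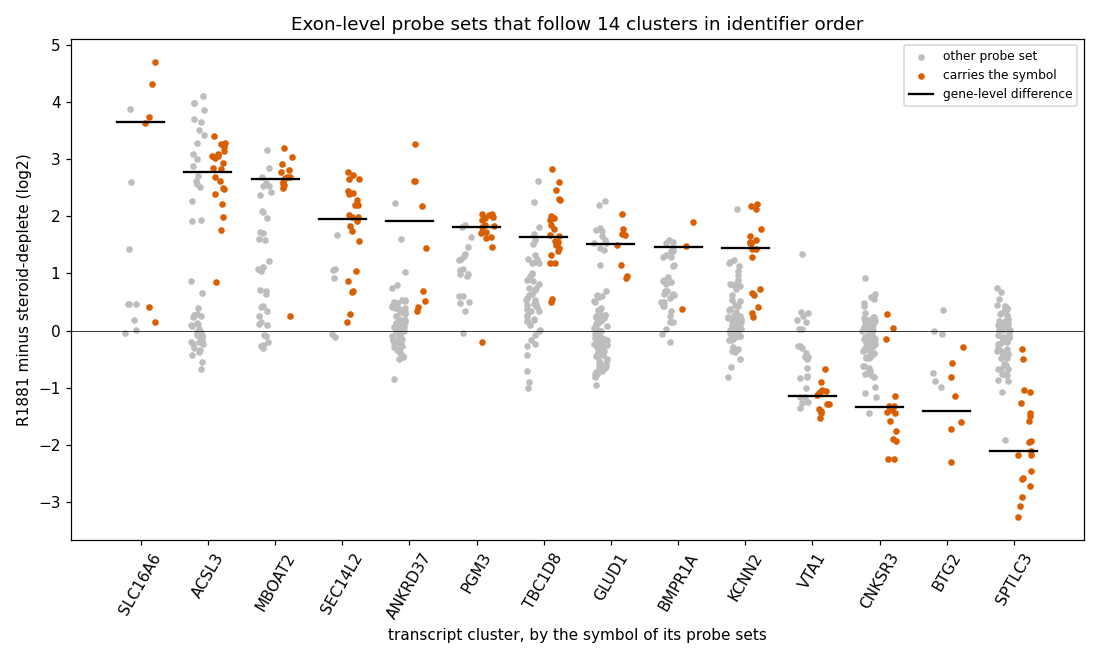
Difference between R1881 and steroid-deplete arrays (y axis, log2) of each exon-level probe set that follows 14 named clusters in identifier order (x axis), with probe sets that carry the name in orange, others in grey and the gene-level difference as a black line. Probe sets with the name spread around the line, from 0.85 to 3.40 for ACSL3 and from 0.16 to 4.71 for SLC16A6.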

How the data were processed

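LNCaP cells were profiled on 8 Human Exon 1.0 ST arrays, 4 per treatment, each deposited as 4 summaries. The authors reduced ribosomal RNA, labelled sense targets and made RMA values with core probe sets, antigenomic background correction and quantile normalisation, on meta probe sets of at least 11 core probes. The deposited RMA values are on the log2 scale, and the deposited Iter-PLIER values are intensity on a linear scale, taken here as log2 with a pseudocount of 16. At exon level the label says Iter-PLIER and the methods say PLIER. The submitters' processing notes name RMA, PLIER and hg18. Arrays have no read depth, and their number limits the precision.

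Gene-level RMA values of all 16309 clusters were fitted with limma 3.58.1 in R 4.3.3 (data.table, version 1.17.8), with Benjamini-Hochberg adjustment. Exon-level RMA values of 620335 probe sets were fitted likewise. Code was tested on simulated data. Summaries used Python 3.11.15, pandas 2.3.3 and numpy 2.4.6. Older symbols were updated through RefSeq synonyms.

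Named clusters were the 12 highest and 12 lowest called clusters with separated arrays, the 5 with the highest and 3 with the lowest mean, those next to the 2-fold limit, runs of adjacent called clusters, and flanking clusters with 1 symbol. Other members are examples chosen after their values were seen. The members and lists were chosen with earlier results of these data known. The rule that names clusters through probe sets and the lists by role were written after the values had been seen. Alternatives were an Iter-PLIER summary, the t-test of the methods (adjusted by Benjamini-Hochberg, or as Storey's q), removal of dim clusters or probe sets, centring, quantile normalisation, an intensity trend, a replicate block, other limits, other neighbours and leaving out arrays.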

Additional observations from a re-analysis of the deposited data

Results flagged for a closer look

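Of 82 groups of 4 arrays examined for the clusters named above, 4 held an array far from the other 3, and chance alone marks about 1 in 20 such groups. For SLC16A6, R1881 replicate 4 was at 9.68 and the others between 9.88 and 9.90. For MTFP1, R1881 replicate 1 was at 6.54 and the others between 7.01 and 7.08. For EPS15P1, steroid-deplete replicate 2 was at 1.91 and the others between 2.01 and 2.02. For cluster 3489481, R1881 replicate 4 was at 2.17 and the others between 1.87 and 1.91.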

How the results depend on the processing

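The counts of 17 clusters higher and 15 lower moved by over 1.5 times under few settings. Iter-PLIER values gave 22 higher and 39 lower, and all 32 clusters called with RMA were among them. Over all clusters, Iter-PLIER values gave 444 higher and 924 lower. An adjusted p under 0.05 with no fold limit gave 88 and 144, and a 1.5-fold limit with an adjusted p under 0.005 gave 33 and 41. Leaving out each array in turn gave 17 to 18 higher and 12 to 15 lower. Under the methods' t-test with Benjamini-Hochberg adjustment 16 and 13 were called, and under Storey's q 17 and 13. Filters on dim clusters at the median and at the lower quartile left 16 and 12, and 17 and 13. Centring gave 20 and 12, quantile normalisation 16 and 13, and an intensity trend 17 and 15. The replicate block gave 17 and 15. Arrays of the same number did not deviate together (correlations 0.07, 0.10, -0.10 and -0.06 of deviations from the group means), so the numbers were not used as pairs. Without both arrays that stand apart, a setting chosen after seeing the data, the counts were 18 and 14. The 8 called clusters with a called neighbour became 5 with the nearest clusters of 1 symbol, and at an adjusted p under 0.05 they were 90 of 232 (38.8%, against 39.2% of all called clusters). Probe sets that changed with the 24 clusters numbered 444 with exon-level Iter-PLIER values and 412 of 675 after the filter on dim probe sets, against 430. The median difference of the 860 clusters was -0.07 with Iter-PLIER values, 0.10 after centring and 0.02 after quantile normalisation. No called cluster named above changed direction under these settings. Calls near the 2-fold limit were lost in at least 1 setting by BIRC3, CAMK2B and clusters 3340251, 3037385 and 3184925, and gained by clusters 3777770 and 3617312. MTFP1 (Benjamini-Hochberg only) and clusters 3184925 and 3340251 (either adjustment) were not called by the methods' t-test. The cause of these changes was not tested.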
